A study of Mus musculus with 2 samples.

Results

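Fibroblast growth factors (FGFs) are secreted signalling proteins that bind tyrosine kinase receptors together with heparan sulfate and switch on the Ras, Raf and ERK kinase cascade. The transcription factors Etv1, Etv4 and Etv5, the intracellular inhibitors of the Sprouty (Spry) and Spred families and the ERK phosphatase Dusp6 are classical transcriptional readouts of this cascade, and most of them dampen it again. At mid-gestation, FGFs from the midbrain-hindbrain boundary, the tail bud, the limb, the surface ectoderm and the mesoderm beside the gut pattern the neighbouring tissue. The FGF genes were chosen by symbol: every gene named Fgf with a number (22 ligand genes), the 4 receptor genes Fgfr1 to Fgfr4 and 11 feedback and response genes (Spry1 to Spry4, Spred1 to Spred3, Etv1, Etv4, Etv5 and Dusp6). All 37 were among the 32285 genes listed in the files, and 29 of them (15 ligands, 4 receptors and 10 feedback genes) had at least 50 unique molecular identifiers (UMIs, each standing for 1 captured transcript) over both libraries, the minimum for a ratio to be counted.

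The data were 2 droplet-based single-cell RNA-seq libraries of dissociated whole mouse embryos at embryonic day 9.5. The wild-type library came from Usb1+/+ embryos and the Usb1-null library from Usb1-/- embryos, which carry a germline deletion in Usb1, made by genome editing, in every cell. Usb1 encodes an exonuclease that processes U6 small nuclear RNA. No treatment was given, the sources used here do not say how many embryos went into a library, and with 1 library per genotype every value below compares these 2 libraries and has no replicate check. The intervals below cover counting error only, at 95%, and no p-value was computed.

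The wild-type library held 15161 cells and 21732106 UMIs after filtering, with a median of 1243 UMIs per cell, and the Usb1-null library held 13018 cells and 33383886 UMIs, with a median of 2299.5. Levels are therefore given as CPM, the UMIs of a gene divided by all UMIs of the library or cluster and scaled to a total of 1000000. CPM counts 3′ ends, 1 per captured transcript, and is not divided by gene length. The libraries also differed in the female-specific transcript Xist, seen in 88.7% of wild-type and 0.177% of Usb1-null cells, so genotype and sex cannot be told apart. The study describes Usb1-null embryos of this day as clearly smaller than wild-type ones. Genotype therefore cannot be told apart from differences in size or stage either. Usb1 itself was at 3.13 CPM in the wild-type and 1.41 CPM in the Usb1-null library (68 and 47 UMIs), but 3′-end counts lie outside the deleted part and do not check the label. The libraries shared 61 cell barcodes, 0.402% of the wild-type and 0.468% of the Usb1-null ones. Cells were partitioned into 31 clusters, of which 26 had 100 or more cells per library, and the name of a cell class ending in "-like" was given to a cluster only where marker genes of 1 class stood out. The FGF genes were left out of the genes used for clustering.

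At the whole-library level the FGF system was close to equal in the libraries, with a shift towards higher values in the Usb1-null library that was most regular among the feedback genes. Of the 29 members counted, 22 were higher and 7 lower in the Usb1-null library. Over all 16752 genes with at least 50 UMIs, 49.8% were higher. A ratio above 1.5 was reached by 3 members, Fgf1, Spry2 and Fgf7, or 10.3% of those counted, beside 9.2% of all genes. A ratio below 1/1.5 was reached by none of the members, beside 5.9% of all genes. Both directions together came to 15.1% of all genes, so the share of members past 1.5-fold was near the background. Fgf3 (1.49) and Spry4 (1.47) lay just inside the threshold. In such whole-embryo sums, more cells of a type and more RNA per cell cannot be told apart. The median log2 ratio (Usb1-null over wild-type) was 0.16 for the ligands, 0.12 for the receptors and 0.22 for the feedback genes, beside -0.00 for all genes. The ligand genes summed to 775 and 880 CPM (1.13) and the receptor genes to 883 and 977 CPM (1.11), of which Fgfr2, whose count is uncertain because of overlapping genes, made up 72.9% of the UMIs.

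**Figure D1:**
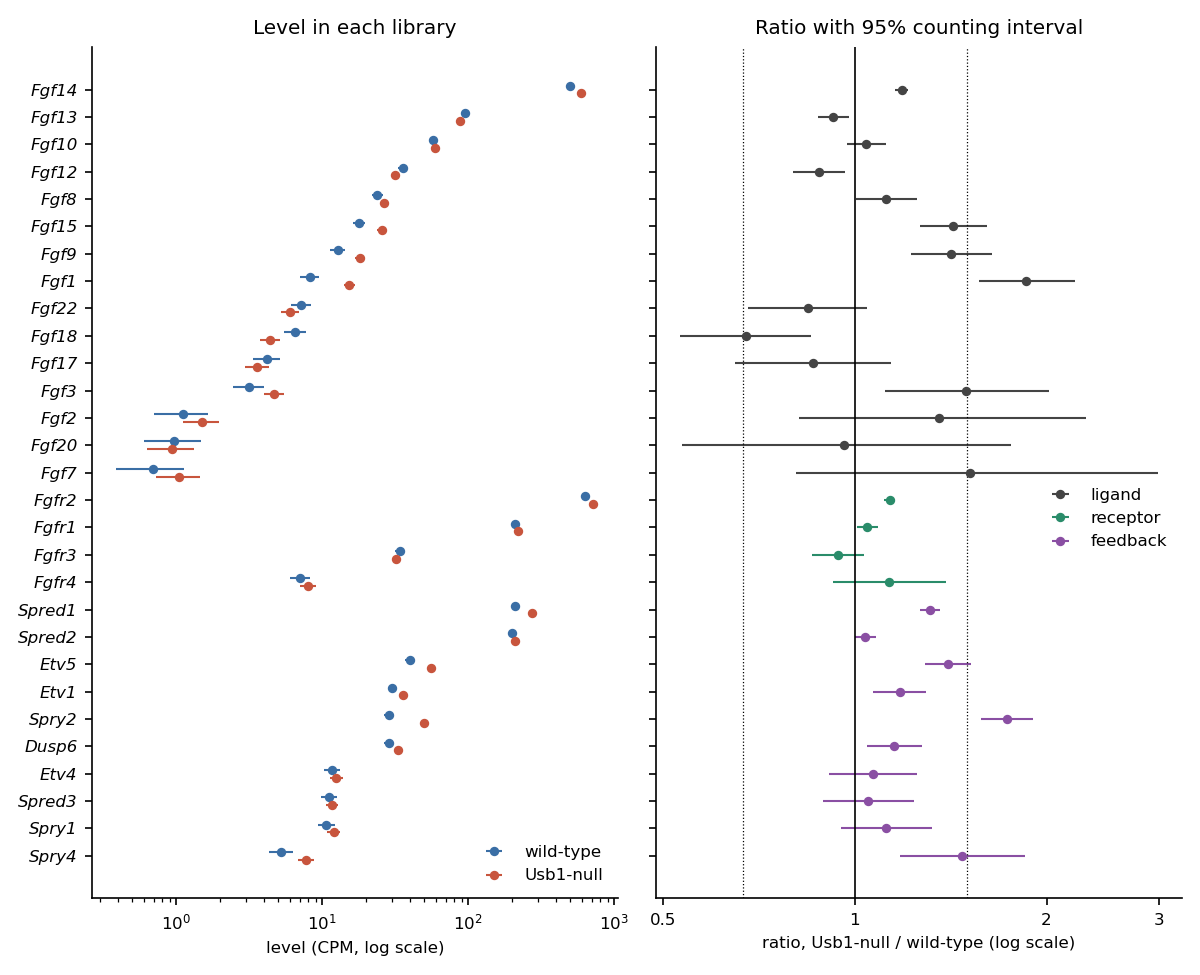
Level (left, CPM on a log scale, blue wild-type and red Usb1-null) and ratio (right, Usb1-null over wild-type on a log scale) of the 29 FGF genes with at least 50 UMIs, with 1 library per genotype and bars giving 95% counting intervals. All 10 feedback genes (purple) lie to the right of 1, Fgf1, Spry2 and Fgf7 lie past the dotted line at 1.5, and Fgf18, the lowest ratio at 0.674, stays just inside the dotted line at 1/1.5.

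The feedback genes lead the account because all 10 counted members were on the higher side. Their summed level was 574 CPM in the wild-type library and 699 CPM in the Usb1-null library, a ratio of 1.22 (1.19 to 1.24). The direction held for each of the 10 under every scaling tried, except that Spred3 came to 0.999 when both libraries were given the wild-type cluster shares. Promoters of the feedback genes whose levels the results turn on are shown first, since Etv factors bind DNA at a GGAA core. Each line gives the 250 bases before a RefSeq transcription start (assembly GRCm38.p6), 5′ to 3′ on the gene's strand, with GGAA or its complement TTCC in capitals. Spry2, at chr14:105896820-105897069 on the minus strand, Spred1, at chr2:117120821-117121070 on the plus strand, and Dusp6, at chr10:99262981-99263230 on the plus strand, had 3, 4 and 6 such cores.
Spry2: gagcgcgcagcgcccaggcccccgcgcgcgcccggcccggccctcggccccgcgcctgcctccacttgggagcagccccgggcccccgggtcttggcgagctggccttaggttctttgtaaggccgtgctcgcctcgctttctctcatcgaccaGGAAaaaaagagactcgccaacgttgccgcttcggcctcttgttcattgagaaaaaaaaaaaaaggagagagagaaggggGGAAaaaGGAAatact
Spred1: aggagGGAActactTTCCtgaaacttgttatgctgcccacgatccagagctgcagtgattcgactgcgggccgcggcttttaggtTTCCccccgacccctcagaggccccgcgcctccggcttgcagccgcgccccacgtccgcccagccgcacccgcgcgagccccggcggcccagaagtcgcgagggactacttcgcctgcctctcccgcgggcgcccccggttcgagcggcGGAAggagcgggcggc
Dusp6: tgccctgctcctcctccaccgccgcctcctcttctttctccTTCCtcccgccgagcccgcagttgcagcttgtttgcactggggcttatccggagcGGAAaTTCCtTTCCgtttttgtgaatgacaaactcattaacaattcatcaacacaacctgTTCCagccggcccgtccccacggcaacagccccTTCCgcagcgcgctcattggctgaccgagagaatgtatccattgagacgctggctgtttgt

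These cores are common letters in any promoter. Of the 32851 RefSeq mouse promoter windows of this length, 93.4% held GGAA on either strand, with a median of 3 copies. Of the 10 windows found for 8 of the 11 feedback genes, 9 held it, with a median of 2.5 copies. The longer core CCGGAA was in none of the 10 windows and in 12.0% of all windows, the AP-1 letters TGACTCA were in none and in 4.46%, and the GC box letters GGGCGG were in 5 of the 10 and in 32.7%. Both strands were searched, and a match is a description of letters, not of binding.

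Spry2, an intracellular inhibitor of receptor tyrosine kinase signalling (chr14:105891947-105896819, GRCm38), had the largest ratio of the feedback genes. It was at 28.5 CPM in the wild-type library and 49.5 CPM in the Usb1-null library (620 and 1652 UMIs), a ratio of 1.73 (1.58 to 1.91). Spry4, its close relative, was at 5.25 and 7.73 CPM, a ratio of 1.47 (1.18 to 1.85). Spry1, the third Sprouty gene, was at 10.7 and 12.0 CPM, and its ratio of 1.12 had an interval that included 1 (0.9499 to 1.32). Spry3 had 27 UMIs in all, under the minimum.

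Spred1, which recruits the Ras inactivator neurofibromin to the membrane (chr2:117121374-117182279), had the most UMIs of the feedback genes, at 208 CPM in the wild-type and 273 CPM in the Usb1-null library, a ratio of 1.31 (1.27 to 1.36). Spred2, a Spred protein of the same kind and similar wild-type level, was at 200.1 and 208 CPM, a ratio of 1.04 (0.999 to 1.08). The intervals of the 2 ratios do not overlap. Spred3 was at 11.1 and 11.7 CPM, a ratio of 1.05 (0.891 to 1.24).

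Among the ETS transcription factors, Etv5 (chr16:22381309-22439719) was at 39.6 CPM in the wild-type and 55.5 CPM in the Usb1-null library, a ratio of 1.40 (1.29 to 1.52). Etv4, which is often read out together with Etv5, was at 11.7 and 12.5 CPM, a ratio of 1.07 (0.911 to 1.252). Etv1 was at 30.3 and 35.6 CPM, a ratio of 1.18 (1.07 to 1.30). Dusp6, the phosphatase that removes the activating phosphates of ERK (chr10:99263231-99267489), was at 28.5 and 32.9 CPM, a ratio of 1.15 (1.04 to 1.28). The interval of the ratio lay above 1 for 6 of the 10 feedback genes, beside 27.1% of all genes, a share that depends on the UMIs of a gene.

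Summed over the feedback genes, the Usb1-null level was higher in 25 of the 26 clusters, with an interval above 1 in 18 and below 1 in none. The exception was the primitive erythroid-like cluster, the red blood cell precursors of the yolk sac, at a ratio of 0.843, and the highest ratio, 1.53, was in cluster 23. That cluster carries the name presomitic mesoderm and tail bud-like in the plots, since 5 of 9 such markers were raised and Dll3 was among its leading genes, but 5 of 8 dermomyotome markers were raised too, so it is called by its number here. Spred1 and Spred2 made up 38.1% and 31.5% of the UMIs in the sum. The smaller sum of Etv4, Etv5, Dusp6 and Spry4 was higher in 22 clusters and lower in 4, with an interval above 1 in 11 and below 1 in 1, splanchnic mesoderm-like cluster 11 (0.636). Summed in the same way, the receptors were higher in 21 clusters, with an interval above 1 in 13 and below 1 in none, and the ligands in 19, with an interval above 1 in 10 and below 1 in none. The 52 other FGF pathway genes were higher in 6 clusters and lower in 20, with an interval above 1 in 2 and below 1 in 7. In the primitive erythroid-like cluster 7 of its own 8 markers were lower as well, 4 of them beyond counting error, with a sum of 16266 and 10329 CPM (0.635), and their part there was not tested. Spry2 was higher in 20 of the 21 clusters where it had at least 20 UMIs, with an interval above 1 in 12, and Spred1 in 23 of 26, with an interval above 1 in 17. A ratio above 1 in at least 85% of at least 20 such clusters was met by 2 of the 11 members that could be read this way, Spry2 and Spred1, and by 10.7% of all genes.

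**Figure D2:**
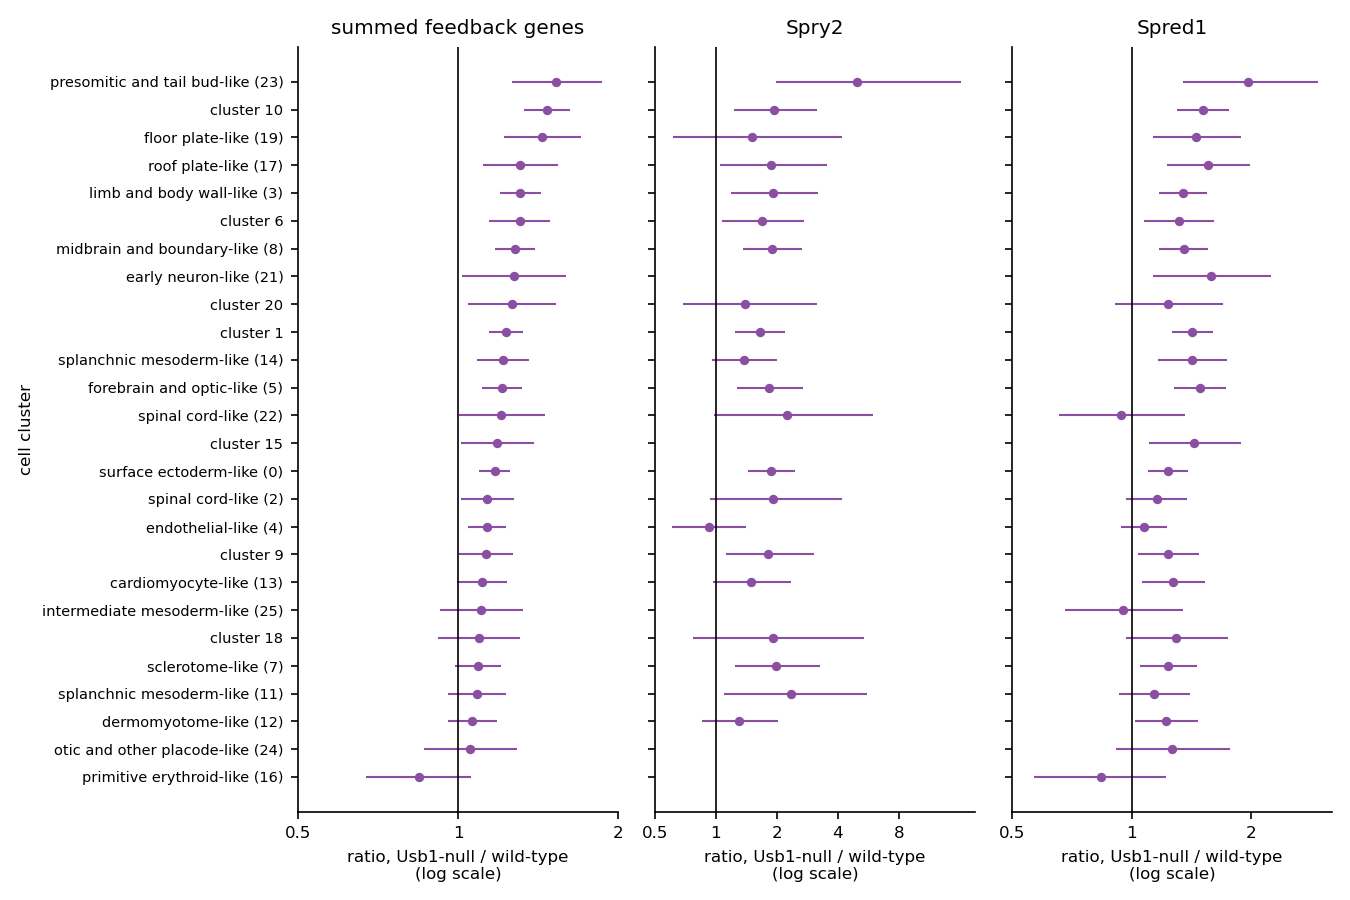
Ratio (Usb1-null over wild-type, log scale, 95% counting interval) of the summed feedback genes, Spry2 and Spred1 in the 26 clusters with 100 or more cells per library, ordered by the summed ratio. Clusters with fewer than 20 UMIs of a gene have no point, and Spry2 lies to the right of 1 in 20 of its 21 clusters.

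The highest clusters of a gene were picked, here and below, by the mean of its levels in the libraries. By that mean Spry2 was highest in splanchnic mesoderm-like cluster 14, also its highest wild-type cluster. It was at 68.7 CPM in the wild-type and 94.1 CPM in the Usb1-null library there, a ratio of 1.37 (0.955 to 2.00). In the midbrain and midbrain-hindbrain boundary-like cluster Spry2 was at 49.95 and 94.4 CPM (47 and 162 UMIs), a ratio of 1.89 (1.36 to 2.67). In the surface ectoderm-like cluster it was at 43.6 and 81.5 CPM, a ratio of 1.87 (1.44 to 2.45). The endothelial-like cluster was the only one of the 21 on the lower side, at a ratio of 0.924. Equalising depth left the order of the libraries as it was. Each cell was thinned to 685 UMIs, and the shallower ones were left out, 1509 in the wild-type and 201 in the Usb1-null library. Among those kept, Spry2 was detected in 1.91% of wild-type and 3.49% of Usb1-null cells, beside 3.85% and 11.1% without thinning. In primitive erythroid-like cells, which should lack most of these transcripts, the thinned shares were 0.239% of 418 cells and 0% of 186, which allows up to 1.96% by the Clopper-Pearson interval.

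The other feedback genes had more local patterns. Etv4 was highest in the intermediate mesoderm-like cluster, the precursors of the kidney ducts, at 81.6 CPM in the wild-type and 145 CPM in the Usb1-null library (13 and 46 UMIs), with a ratio of 1.78 (0.946 to 3.59). Splanchnic mesoderm-like cluster 14, at 31.9 and 23.3 CPM, and the surface ectoderm-like cluster, at 30.2 and 21.5 CPM, came next for Etv4. Etv5 was high there too, at 119 and 180.0 CPM, and in the otic and other placode-like cluster at 121 and 143 CPM and the surface ectoderm-like cluster at 103 and 118 CPM. None of these 3 ratios of Etv5 had an interval apart from 1, while 7 other clusters did, all on the higher side, among them the endothelial-like cluster at 30.1 and 56.9 CPM (1.89, 1.33 to 2.73). Dusp6 was spread more evenly, with medians over clusters of 25.3 and 34.8 CPM and its highest levels in 3 clusters. These were cluster 1, a mixed craniofacial and neural crest cluster left unnamed, at 50.7 and 55.6 CPM, the endothelial-like cluster at 44.8 and 57.3 CPM, and the dermomyotome and myotome-like cluster at 44.9 and 51.1 CPM. Etv1 was highest in the cardiomyocyte-like cluster in the wild-type library, at 70.9 CPM, and stood at 51.2 CPM there in the Usb1-null library. In splanchnic mesoderm-like cluster 14, its highest Usb1-null cluster, it was at 30.3 and 63.9 CPM (19 and 74 UMIs), a ratio of 2.11 (1.26 to 3.69). It was at 41.6 and 59.8 CPM in cluster 10, left unnamed, and at 48.0 and 50.6 CPM in splanchnic mesoderm-like cluster 11. Besides cluster 14, none of these ratios of Etv1 and Dusp6 had an interval apart from 1.

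Of the Spred genes, Spred1 was highest in the boundary-like cluster in the Usb1-null library, at 295 and 400 CPM (1.35, 1.17 to 1.56), and in the intermediate mesoderm-like cluster in the wild-type library, at 345 and 328 CPM, followed by cluster 10, at 254 and 384 CPM (1.51, 1.30 to 1.76). Spred2 was highest in the intermediate mesoderm-like cluster at 464 and 388 CPM, then in cluster 23 at 254 and 304 CPM and in spinal cord-like cluster 22 at 269.8 and 275 CPM. Spred3 was highest in the intermediate mesoderm-like cluster in the Usb1-null library, at 50.2 and 53.7 CPM, and in the otic and other placode-like cluster in the wild-type library, at 51.2 and 22.3 CPM, then in the boundary-like cluster at 36.1 and 25.6 CPM. The intermediate mesoderm-like cluster, with 109 and 114 cells, thus ranked among the highest for all 3 Spred genes. Spry1 was at 37.6 and 18.95 CPM there (6 UMIs in each library), at 25.5 and 29.1 CPM in the boundary-like cluster and at 20.7 and 28.9 CPM in the surface ectoderm-like cluster. Spry4, an inhibitor well known from blood vessels, was highest in the endothelial-like cluster in the wild-type library, at 18.2 and 16.8 CPM. In the Usb1-null library the intermediate mesoderm-like cluster, at 6.27 and 22.1 CPM (1 and 7 UMIs), and cluster 1, at 12.7 and 19.5 CPM, stood above it.

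Early-response genes that tissue dissociation can also switch on were read beside the feedback genes. Of 13 immediate early genes, 9 were higher and 6 of them past 1.5-fold, including Dusp1 at 1.62 and Fos at 1.57, while Jun, with the most UMIs, was lower at 0.750. Their median log2 ratio was 0.48, above that of the feedback genes, and 46.2% of them were past 1.5-fold, beside 15.1% of all genes. Their summed level, mostly Jun and Ier2, was 133 and 134 CPM, a ratio of 1.01 (0.968 to 1.06), and it was higher in 13 and lower in 13 of the 26 clusters. Their part in the feedback result was not tested.

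The ligands fall into 2 kinds. Fgf11 to Fgf14 are intracellular proteins that bind sodium channels and do not act through the receptors. They made up 80.9% of all Fgf UMIs, Fgf14 alone 66.0%. The 18 secreted ligands together were at 146 CPM in the wild-type and 170 CPM in the Usb1-null library, a ratio of 1.16 (1.11 to 1.21). By subfamily, Fgf8, Fgf17 and Fgf18 summed to 34.6 and 34.7 CPM, a ratio of 1.00 (0.915 to 1.10), and Fgf3, Fgf7, Fgf10 and Fgf22 to 68.2 and 71.4 CPM, a ratio of 1.05 (0.981 to 1.12). The subfamilies of Fgf9 (14.4 and 19.7 CPM, 1.37), of Fgf15 (18.2 and 25.9 CPM, 1.42) and of Fgf1 (9.34 and 16.8 CPM, 1.80) were higher beyond counting error. Fgf4, Fgf5 and Fgf6 summed to 1.20 and 0.959 CPM (26 and 32 UMIs), a ratio of 0.801 (0.463 to 1.40).

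Fgf8, the ligand of the midbrain-hindbrain boundary, limb ridge and tail bud (chr19:45736798-45742915), was at 23.8 CPM in the wild-type and 26.7 CPM in the Usb1-null library, a ratio of 1.12 (1.00 to 1.2502). Its highest cluster in both libraries was the midbrain and midbrain-hindbrain boundary-like one, at 130 and 119 CPM (0.916, 0.729 to 1.16). The surface ectoderm-like cluster followed at 97.2 and 92.4 CPM and the intermediate mesoderm-like cluster at 87.8 and 47.4 CPM, the latter from 14 and 15 UMIs with a ratio of 0.539 (0.243 to 1.21). In the same clusters thinned to equal depth, an Fgf8 UMI was seen in 6.02% and 5.96% of boundary-like cells, in 6.74% and 4.70% of surface ectoderm-like cells and in 2.94% and 5.31% of intermediate mesoderm-like cells, so the last cluster had the opposite order on this scale to its CPM and no order was read there. Primitive erythroid-like cells gave 0.478% and 0.538%. In the 3 clusters where Fgf8 was highest, the interval of the ratio thus included 1. Of its 12 clusters with at least 20 UMIs, 3 had an interval above 1 and none below. These were the forebrain and optic-like cluster, at 46.5 and 65.3 CPM (1.40, 1.04 to 1.91), the endothelial-like cluster, with 2 and 27 UMIs (8.31, 2.09 to 72.1), and cluster 23.

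Fgf17, the relative of Fgf8 in the boundary region, was at 4.19 and 3.59 CPM overall and peaked in the same cluster, at 40.4 CPM in the wild-type and 24.5 CPM in the Usb1-null library (38 and 42 UMIs), a ratio of 0.606 (0.381 to 0.965). It was at 3.97 and 19.5 CPM in spinal cord-like cluster 22 (1 and 11 UMIs) and at 12.99 and 8.91 CPM in the forebrain and optic-like cluster. The boundary markers did not move together beside it: En1 was at a ratio of 1.42, En2 of 1.72, Pax2 of 1.84 and Otx2 of 0.795, and the 8 markers summed at 1.08. Their part in the ratio of Fgf17 was not tested. Fgf15, which acts in the midbrain and forebrain neuroepithelium, was at 17.9 and 25.6 CPM overall (1.43, 1.26 to 1.61). It was highest in the boundary-like cluster, at 119 and 126 CPM, then in spinal cord-like cluster 2 at 56.2 and 71.9 CPM and in the roof plate-like cluster at 48.7 and 59.9 CPM. In cluster 9, a hindbrain-marked neural cluster left unnamed, it was at 24.1 and 49.3 CPM (2.04, 1.24 to 3.497). Fgf3, a hindbrain signal to the ear, was at 3.13 and 4.67 CPM overall (1.49, 1.12 to 2.02) and was highest in that same cluster, at 14.9 and 32.4 CPM (13 and 48 UMIs), a ratio of 2.17 (1.16 to 4.37). Levels of Fgf3 were lower in cluster 23 (7.48 and 15.2 CPM) and the surface ectoderm-like cluster (8.38 and 8.46 CPM).

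Fgf10, the mesenchymal ligand of limb and lung outgrowth (chr13:118669791-118792115), was the secreted ligand with the most UMIs, at 57.2 CPM in the wild-type and 59.6 CPM in the Usb1-null library, a ratio of 1.04 (0.971 to 1.12). It was highest in the otic and other placode-like cluster at 386 and 340 CPM, then in splanchnic mesoderm-like cluster 14 at 255 and 282 CPM and in the limb and body wall mesenchyme-like cluster at 280 and 248 CPM. None of these 3 ratios lay beyond counting error. Fgf22 was at 7.18 and 6.05 CPM overall (0.843, 0.681 to 1.05), with its highest level, 16.9 and 16.1 CPM, in cluster 6, a cluster of few UMIs per cell. It was at 12.5 and 9.48 CPM in the intermediate mesoderm-like cluster and at 3.74 and 15.2 CPM in cluster 23, from 2 and 3 and from 1 and 7 UMIs.

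Fgf9, an epithelial and mesothelial ligand (chr14:58070547-58112720), was at 12.7 and 18.1 CPM, a ratio of 1.42 (1.23 to 1.64). It was highest in the intermediate mesoderm-like cluster, at 176 and 212 CPM, where Etv4 and Etv5 were also high, and then in the otic and other placode-like cluster, at 107 and 82.7 CPM (0.773, 0.424 to 1.42). In the limb and body wall mesenchyme-like cluster it was at 36.1 and 66.7 CPM (51 and 137 UMIs), a ratio of 1.85 (1.33 to 2.60), and in the surface ectoderm-like cluster at 23.5 and 38.4 CPM, a ratio of 1.64 (1.14 to 2.40).

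Fgf1, a ligand that leaves the cell without a signal peptide and can bind all the receptors, had the largest ratio of all members counted. It was at 8.24 CPM in the wild-type and 15.3 CPM in the Usb1-null library (179 and 511 UMIs), a ratio of 1.86 (1.56 to 2.22). Its highest cluster, splanchnic mesoderm-like cluster 14, was at 35.1 and 42.3 CPM (1.20, 0.715 to 2.09), followed by the intermediate mesoderm-like cluster at 18.8 and 28.4 CPM and cluster 10 at 18.2 and 26.9 CPM. The larger ratios lay in other clusters. The forebrain and optic-like cluster had 3 and 35 UMIs (8.44, 2.66 to 42.9), the boundary-like cluster 3 and 34 (6.21, 1.95 to 31.6), and cluster 1 had 17 and 73, at 9.80 and 30.3 CPM (3.09, 1.81 to 5.60). Fgf2 was at 1.10 and 1.498 CPM, Fgf7 at 0.690 and 1.05 CPM and Fgf20 at 0.966 and 0.929 CPM, all with intervals of the ratio that included 1. Fgf7, whose ratio of 1.52 put it past 1.5-fold, rested on 50 UMIs and came to 1.33 with doublets removed.

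Fgf18 was the lowest of the counted members, at 6.53 CPM in the wild-type and 4.40 CPM in the Usb1-null library (142 and 147 UMIs), a ratio of 0.674 (0.531 to 0.855). It was concentrated in cluster 23, at 157 and 93.3 CPM (42 and 43 UMIs), a ratio of 0.594 (0.379 to 0.931). It was lower in ratio, within counting error, in its next clusters, the dermomyotome and myotome-like one at 19.3 and 12.9 CPM and the boundary-like one at 19.1 and 12.2 CPM. Spry2 went the other way in that cluster, at 18.7 and 93.3 CPM (5 and 43 UMIs, ratio 4.99, 1.98 to 16.1), and so did Fgf9, at 48.6 and 137 CPM (13 and 63 UMIs, ratio 2.81, 1.53 to 5.57). Fgf8 there had 1 UMI in the wild-type and 27 in the Usb1-null library, at 3.74 and 58.6 CPM, a ratio of 15.7 (2.58 to 641).

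This cluster held 184 wild-type and 178 Usb1-null cells, and its makeup differed between the libraries. The 9 presomitic and tail bud markers summed to 404 and 699 CPM (1.73), with Hes7, the segmentation clock gene, at 22.4 and 80.3 CPM and Rspo3 at 161 and 397 CPM, Dll3 at 172 and 150 CPM (0.870) and Tbx6 at 37.4 and 34.7 CPM (0.928), while Msgn1 and Wnt3a were at 0 in both. The dermomyotome markers summed to 1725 and 988 CPM (0.573). None of the 4 other clusterings tried parted these cells from the dermomyotome and myotome-like cells. With these 2 clusters joined, Fgf8 was at 19.96 CPM in the wild-type and 26.5 CPM in the Usb1-null library (24 and 49 UMIs), a ratio of 1.33 (0.798 to 2.26), so the difference of Fgf8 depended on where the line was drawn. The ratios of Fgf9 (2.63, 1.56 to 4.69), Fgf18 (0.660, 0.455 to 0.959) and Spry2 (1.81, 1.248 to 2.69) kept their direction in the joined cells. The makeup of the joined cells still differed between the libraries. Hes7 (3.80) and Rspo3 (2.24) were higher there, and Pax3 (0.734) and Meox1 (0.809) were lower. Their part in these ratios was not tested.

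Spinal cord-like cluster 22, with 187 and 227 cells, also had more tail bud marker UMIs in the Usb1-null library. Dusp6 had 1 and 23 UMIs there (10.3, 1.67 to 423), Fgf15 had 3 and 25 (3.72, 1.13 to 19.2), and the caudal marker Cdx2 had 1 and 31 UMIs. The presomitic and tail bud markers summed to 39.7 and 142 CPM in this cluster, a ratio of 3.57 (1.84 to 7.73), and its 8 spinal cord markers to 627 and 763 CPM (1.22, 1.01 to 1.47). The part of these markers in the FGF differences was not tested.

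**Figure D3:**
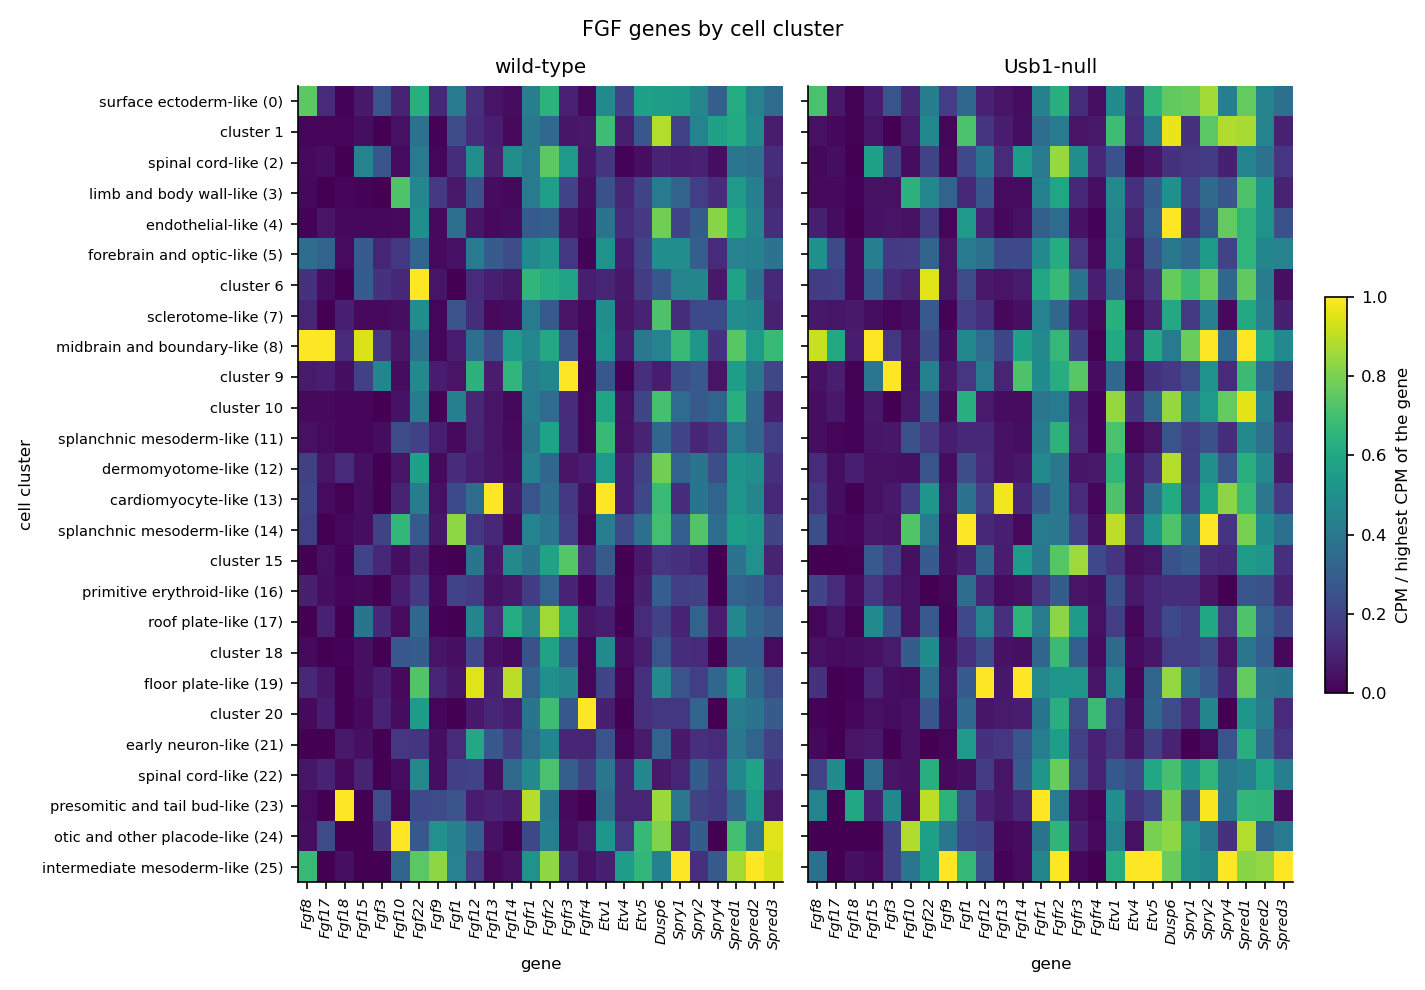
Level of 26 FGF genes with at least 100 UMIs in the 26 clusters with 100 or more cells per library, wild-type left and Usb1-null right. Colour gives the CPM divided by the highest CPM of that gene in either library, so that 1 is the peak cluster, and the peaks of Fgf8, Fgf10, Fgf13 and Fgf18 fall in the same clusters in both panels.

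Over the 26 clusters, all 12 ligands with at least 100 UMIs had the same peak cluster in both libraries, as did 2 of the 4 receptors (Fgfr1 and Fgfr4) and 2 of the 10 feedback genes (Etv4 and Spred2), or 16 of 26 members. The same share was not taken over all genes, so it cannot be read as particular to the FGF genes. The clusters were also built from both libraries together. The Spearman correlation of a member's levels between the libraries over these clusters had a median of 0.780. It ran from 0.238, for Fgf22, to 0.919, a description over clusters that share a library. Within clusters, 397 pairs of a member and a cluster had at least 20 UMIs. The interval of the ratio lay above 1 in 94 of them (23.7%) and below 1 in 14 (3.53%), beside 8.04% and 9.66% of the 252475 such pairs over all genes. For the feedback genes the counts were 45 above and 0 below among 169 pairs. A few genes made up most of the 94. Spred1 gave 17, Fgf14 gave 15, Fgfr2, whose count is uncertain, gave 15 and Spry2 gave 12. Most of the 45 came from Spred1, Spry2 and Etv5, the last with 7. Genes with many UMIs reach such an interval more easily, and the pairs of 1 gene share their libraries.

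Of the intracellular Fgf genes, Fgf13, on the X chromosome, was highest in the cardiomyocyte-like cluster, at 765 CPM in the wild-type and 751 CPM in the Usb1-null library (0.982, 0.889 to 1.09). It was lower in the forebrain and optic-like cluster, at 221 and 169 CPM (0.764, 0.654 to 0.892), and near equal in the boundary-like cluster, at 181 and 161 CPM (0.893, 0.735 to 1.09). Overall it was at 95.4 and 88.4 CPM (0.926, 0.875 to 0.980). Fgf12 was highest in the floor plate and ventral neural tube-like cluster, at 133 and 139 CPM, then in cluster 9 at 89.6 and 56.7 CPM (0.633, 0.460 to 0.873) and in the roof plate-like cluster at 63.7 and 62.3 CPM, and stood at 35.6 and 31.3 CPM overall (0.878, 0.799 to 0.965). Fgf14 was also highest there, at 2608 and 2906 CPM, with 1911 and 2098 CPM in cluster 9 and 1786 and 1881 CPM in the roof plate-like cluster, and was at 498 and 590 CPM overall (1.19, 1.16 to 1.21). Fgf14 spans 699 kb and Fgf12 593 kb, and the sources used here do not say whether reads in introns were counted.

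The early neuron-like cluster, with 285 and 138 cells, had 3 ligand genes that were lower beyond counting error. Fgf12 was at 84.3 CPM in the wild-type and 19.96 CPM in the Usb1-null library (32 and 7 UMIs, 0.237, 0.0882 to 0.546). Fgf10 was at 60.6 and 17.1 CPM (23 and 6 UMIs, 0.282, 0.0940 to 0.713), and Fgf13 at 211 and 120 CPM (0.568, 0.381 to 0.835). All 8 neuronal markers were lower there as well, 6 of them beyond counting error, with a median ratio of 0.626. Their part was not tested.

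The receptors had whole-library ratios close to 1. Fgfr1 (chr8:25513654-25575718) was at 208 CPM in the wild-type and 218 CPM in the Usb1-null library, a ratio of 1.05 (1.01 to 1.09). It was highest in cluster 23, at 456 and 514 CPM (1.13, 0.902 to 1.41), then in cluster 6 at 339 and 306 CPM and in spinal cord-like cluster 22 at 242 and 269 CPM. Its ratio lay above 1 beyond counting error in 2 other clusters, the floor plate and ventral neural tube-like one, at 162 and 243 CPM (1.497, 1.13 to 2.01), and the otic and other placode-like one, at 112 and 197 CPM (1.77, 1.09 to 2.96). Fgfr3, a receptor of the ventricular neuroepithelium, was at 34.1 and 32.1 CPM (0.941, 0.856 to 1.04) and was highest in cluster 9 in the wild-type library, at 145 and 107 CPM (0.742, 0.583 to 0.945). In the Usb1-null library it was highest in cluster 15, left unnamed, at 107 and 124 CPM, whose ratio was within counting error, as was that of the roof plate-like cluster at 84.3 and 79.9 CPM. Fgfr3 was also lower beyond counting error in the limb and body wall mesenchyme-like cluster, at 28.99 and 16.1 CPM (0.554, 0.339 to 0.898), and in cluster 6, at 84.4 and 55.7 CPM (0.660, 0.443 to 0.982). Fgfr4 was at 7.09 and 8.03 CPM (1.13, 0.926 to 1.39) and was highest in cluster 20, a cluster with endoderm markers left unnamed, at 127 and 86.4 CPM (0.682, 0.462 to 1.02). It was far lower in cluster 15, at 16.3 and 27.9 CPM, and in spinal cord-like cluster 22, at 23.8 and 12.4 CPM.

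Fgfr2 read highest, at 634 and 719 CPM (1.13, 1.11 to 1.16), but its count is uncertain. Its highest clusters were the intermediate mesoderm-like one at 1066 and 1282 CPM, the roof plate-like one at 1100.05 and 1059.9 CPM and spinal cord-like cluster 2 at 962 and 1085 CPM. Its annotated extent is 2961 kb and overlaps 22 other genes on the same strand, and it was seen in 30.4% of wild-type and 46.0% of Usb1-null primitive erythroid-like cells, against 8.22% and 11.6% for Fgfr1. No other member overlapped a listed gene on the same strand, and 10 others, Fgf1 among them, overlapped genes on the opposite strand.

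The 52 other pathway genes summed to 7417 CPM in the wild-type and 7305 CPM in the Usb1-null library, a ratio of 0.985 (0.979 to 0.991). Of the 50 with at least 50 UMIs, 25 were higher and 25 lower, with a median log2 ratio of -0.00. Past 1.5-fold, 1 was higher and 2 were lower, together 6% of those counted, beside 15.1% of all genes. The 3 highest among genes with at least 100 UMIs were Frs3, a docking protein of the receptors, at 1.79 and 3.59 CPM (2.00, 1.39 to 2.95), Dusp4, a nuclear ERK phosphatase, at 13.1 and 18.96 CPM (1.45, 1.26 to 1.67), and Fgfbp3, a carrier of secreted ligands, at 45.0 and 58.1 CPM (1.29, 1.19 to 1.39). The 3 lowest were kinases and a small GTPase of the cascade itself. Hras was at 38.7 and 22.6 CPM (0.584, 0.529 to 0.646), Mapk3, which encodes ERK1, at 25.8 and 16.7 CPM (0.649, 0.576 to 0.731), and Map2k2, which encodes MEK2, at 118 and 92.02 CPM (0.782, 0.742 to 0.824). The heparan sulfate genes had a median log2 ratio of -0.05, with 8 of 10 lower.

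Cells with an Fgf8 UMI, called Fgf8 cells below, were compared with the other cells of the same cluster and library, over the 12 clusters with at least 20 Fgf8 UMIs. A UMI does not show that a cell made the transcript, since free RNA gives UMIs too: 1.17% of wild-type and 2.12% of Usb1-null primitive erythroid-like cells held an Fgf8 UMI, beside 2.35% and 4.09% of all cells. In the wild-type library 315 cells held an Fgf8 UMI and 7065 did not, and in the Usb1-null library 460 did and 6134 did not. Fgf17 was at 51.0 against 8.43 CPM in the wild-type library, a ratio of 6.05 (4.05 to 8.69), and at 29.7 against 4.68 CPM in the Usb1-null library, a ratio of 6.34 (4.55 to 8.60). Etv4 was higher in the Fgf8 cells in both libraries, by 1.97 (1.22 to 3.01) and 1.80 (1.31 to 2.43). Fgfr1 did not separate them, at 0.988 and 1.05.

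The feedback genes together were higher in Fgf8 cells by 1.20 (1.09 to 1.31) in the wild-type library and by 1.36 (1.29 to 1.43) in the Usb1-null library. For Etv5 the ratios were 1.19 (0.873 to 1.58) and 1.82 (1.58 to 2.09), for Spry2 1.251 (0.832 to 1.81) and 1.64 (1.39 to 1.93), and for Dusp6 1.10 (0.671 to 1.70) and 1.48 (1.15 to 1.86). A cell with more UMIs is more likely to show an Fgf8 UMI, and with each cell thinned to 685 UMIs the summed ratios came to 1.52 (1.27 to 1.81) and 1.57 (1.33 to 1.83). At equal depth the intervals of the libraries thus overlapped almost fully. For Etv5 the thinned ratios were 2.06 (1.22 to 3.25) and 2.21 (1.37 to 3.38), so that the wild-type one, whose interval included 1 with all UMIs, lay above 1 at equal depth, whereas Etv4 rested on 4 and 1 UMIs in the Fgf8 cells and could not be read, and Fgf17 rested on 3 and 5 UMIs, at 2.42 (0.4996 to 7.08) and 5.59 (1.81 to 13.04). The immediate early genes were at 1.06 (0.829 to 1.33) and 0.960 (0.825 to 1.11) in the same cells.

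**Figure D4:**
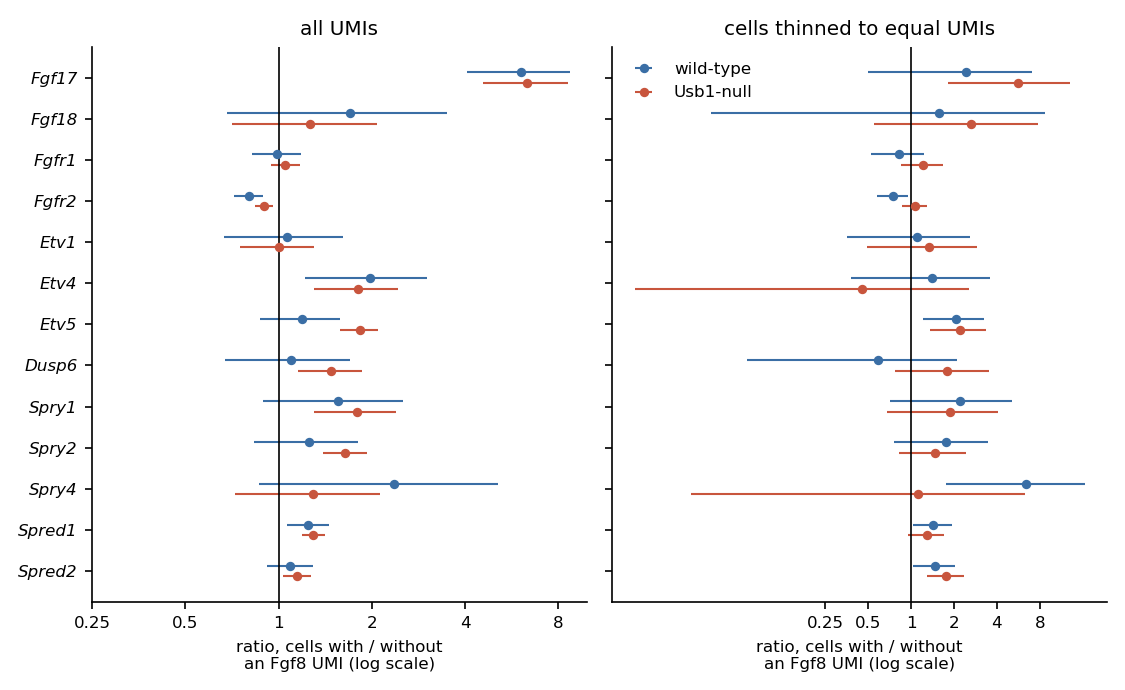
Ratio of levels in cells with an Fgf8 UMI over the other cells of the same cluster and library (log scale, 95% counting interval of the Fgf8 cells alone, blue wild-type and red Usb1-null), with all UMIs (left) and with each cell thinned to 685 UMIs (right). Fgf17 stands out at 6.05 and 6.34 with all UMIs, and Etv5 lies to the right of 1 in both libraries after thinning.

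Across the 26 clusters, the summed secreted ligands and the summed Etv4, Etv5, Dusp6 and Spry4 levels went together, with a Pearson correlation of 0.692 in the wild-type and 0.614 in the Usb1-null library and a Spearman correlation of 0.417 and 0.410. The points share libraries and depth, so these are descriptions. For single genes the Pearson correlation with the same sum was 0.691 and 0.673 for Fgf9, 0.539 and 0.385 for Fgf8, 0.457 and 0.366 for Fgf10, -0.184 and -0.192 for Fgf15, 0.0762 and 0.0948 for Fgfr1, and -0.0206 and 0.205 for Fgfr2. By ranks Fgf9 did not lead, with a Spearman correlation of 0.396 and 0.302 beside 0.415 and 0.423 for Fgf8 and 0.305 and 0.404 for Fgf10. The 8 members under the minimum were Fgf4, Fgf5, Fgf6, Fgf11, Fgf16, Fgf21, Fgf23 and Spry3, with 1 to 39 UMIs each, too few for a ratio to be read.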

How the data were processed

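Whole-embryo cells at embryonic day 9.5 were profiled in 1 wild-type and 1 Usb1-null library (10x 3′ chemistry). The authors deposited UMI counts per gene and barcode, with no normalisation. The file headers name Cell Ranger 6.1.2 and the submitters' processing notes name 2.1.1 and build mm10. The labels name nuclear RNA, whereas the protocol describes single-cell suspensions, and the sources used here do not say whether introns were counted. The files hold as many Usb1-null barcodes as the study states cells, and more wild-type ones.

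Cells with 200 to 6000 genes and under 30% mitochondrial UMIs were kept, following the study. Every barcode held at least 500 UMIs. UMIs were summed per library, or per cluster and library, as CPM. Each ratio between the libraries divides the Usb1-null by the wild-type level and has an exact binomial 95% interval. Levels have exact Poisson intervals and shares Clopper-Pearson ones. All of these are for counting error only. A library at 0 was set to 3 UMIs, and no ratio was counted where both libraries held 3 UMIs or fewer. With 1 library per group no test was run. On Poisson counts simulated from the wild-type means over 14232 genes, 95.4% of the intervals of unchanged genes held the true ratio. Since the intervals assume such counts, this checks their computation only. The simulation held no variation between embryos, cells or libraries.

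Clustering used 2000 variable genes without the FGF genes, 30 principal components, Harmony correction for library rewritten in NumPy 2.4.6, 15 neighbours and the Leiden algorithm (leidenalg 0.10.2, Scanpy 1.11.5). A cluster was named from marker lists when at least 3 markers were raised 2-fold and 1 list led the others clearly, a rule set after the clusters were seen. Scrublet doublets (6.76% of wild-type and 4.30% of Usb1-null cells) were kept. Cells with an Fgf8 UMI were compared with the others after weighting by cluster. The intervals of these ratios are Poisson ones for the UMIs in the Fgf8 cells alone. They leave out counting error in the other cells and are too narrow where those hold few UMIs. Coordinates and overlaps are from GENCODE M21 (GRCm38) and promoters from RefSeq, which matched 27 of the 37 genes. Members with at least 50 UMIs are given with their ratio, those with at least 100 also with their highest clusters, and ratios within a cluster need 20 UMIs of the gene. The members and lists were chosen with earlier results of these data known.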

Additional observations from a re-analysis of the deposited data

Results flagged for a closer look

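Of the FGF genes, 3 had clusters in which the Usb1-null level was higher beyond counting error and others in which it was lower. The difference between these clusters was not tested, since each cluster has 1 library per genotype. Fgf10 was highest in ratio in the endothelial-like cluster, at 9.10 CPM in the wild-type and 17.7 CPM in the Usb1-null library (1.94), and lowest in the early neuron-like cluster, at 60.6 and 17.1 CPM (0.282). Fgf13 ran from 1.30 in spinal cord-like cluster 2, at 69.5 and 90.2 CPM, to 0.568 in the early neuron-like cluster, at 211 and 120 CPM. Fgf14 ran from 5.13 in the otic and other placode-like cluster, from 4 and 30 UMIs, to 0.628 in the primitive erythroid-like cluster, from 141 and 51 UMIs. The erythroid markers summed to a ratio of 0.635 in that cluster, and their part was not tested. Fgf14 had an interval above 1 in 15 clusters and below 1 in 2.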

How the results depend on the processing

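Direction and size were recomputed under other filters, scalings, cluster shares, minimums and clusterings. Over the alternatives, the median log2 ratio of the feedback genes ran from 0.18 to 0.23 and that of the ligands from 0.09 to 0.22, while that of the receptors came to 0.026 when both libraries were given the wild-type cluster shares. Spry2 stayed between 1.68 and 1.78 and Fgf1 between 1.82 and 1.86. Fgf20 (1.33) and Fgfr3 (1.04) crossed 1 with at least 1000 genes per cell, and Spred3 (0.999) with wild-type cluster shares. The number of FGF genes above 1.5-fold was 5 with no minimum beyond 1 UMI and 10 at a fold threshold below 1.5, against 3. It was 2 with doublets removed, where Fgf7 came to 1.33, with at least 200 UMIs and without primitive erythroid-like cells. The number below was 1 with no minimum (Fgf5, 16 and 10 UMIs), 1 at that lower threshold, 1 with at least 1000 genes per cell, 1 with totals without mitochondrial, ribosomal protein and globin genes, and 1 without primitive erythroid-like cells, against 0. With the number of clusters nearest to 19, Fgf8 in the boundary-like cells came to 1.19 and the feedback ratio of wild-type Fgf8 cells to 1.31. Thinning gave 1.52 in the wild-type and 1.57 in the Usb1-null library. The feedback sum was higher in 100% of clusters with doublets removed and in 93.8% with the number nearest to 19, against 96.2%. Joining cluster 23 with the dermomyotome and myotome-like cluster gave 1.33 for Fgf8, and the 4 other clusterings gave no cluster matching cluster 23, so no value there. The last alternative and the one without erythroid-like cells were chosen after seeing the data. The cause of each shift was not tested beyond the construction of the alternative. No paired analysis was possible because each group holds 1 library. Differences of less than the counting intervals were not detectable at this depth.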
